A study of Mus musculus with 10 samples.

Results

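Among the 151133 regions counted in an IKZF2 CUT&RUN experiment, 560 (0.371%) were wide regions at gene ends: regions more than 300 bp wide that lay within 1000 bp of either end of a protein-coding gene. They were selected by width and position alone, on the 19 autosomes and without the segment of chromosome 4 from 3 to 60 Mb. The width of a region was set when the authors called peaks on signal of the same kind, so the signal of these regions is described here and not tested against that of narrower ones. IKZF2, also called Helios, belongs to the Ikaros group of zinc finger transcription factors. It was profiled in RN2 cells, a mouse acute myeloid leukaemia line with the MLL-AF9 fusion and mutant NRAS, which had been given murine IKZF2 together with the marker RFP by retrovirus. All samples carried this overexpressed IKZF2, the labels name no promoter for it, and no sample without it was analysed. The IKZF2 antibody was used in 6 samples, which form 3 libraries of 2 technical replicates. A further 4 samples with a control antibody were not analysed here, so no value below is signal above a control.

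Ikaros family proteins bind DNA through zinc fingers that read a short core, GGGAA, and act both as repressors, partly through the NuRD chromatin remodelling complex, and as activators. In CUT&RUN a nuclease fused to protein A is held at the target by an antibody inside permeabilised cells, and the short fragments it cuts free are sequenced. Promoters of widely expressed genes often lie in CpG islands, which are rich in GC boxes (GGGCGG, bound by SP and KLF factors) and in many cases carry a CCAAT box (bound by NF-Y) a short distance upstream of the start.

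The label of a gene end was checked against gene strand, which was known for the gene nearest to 474 of the 560 regions. A gene start was the nearest end for 435 of them (91.8%, 95% Wilson interval 88.9 to 93.9) and the far end of a gene for 39, while the strand of the other 86 was not in the table. Wide regions at gene ends were therefore in the main regions at gene starts. Among narrower regions within the same distance of a gene end, 71.0% of 8049 with known strand lay nearest to a start (interval 70.0 to 71.9). In both sets a start was counted first where several ends were equally near, as when a region covered them. Among wide regions near 1 gene only, the share at a start was 91.1%.

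The promoter sequences of 5 members are printed here because each promoter window lay wholly inside its region and these were among the members of highest signal for which that held, so a reader can see what kind of DNA the regions cover. Each window runs 5′ to 3′ on the strand of the gene, from 250 bases upstream of the start to 50 bases downstream, and is taken from RefSeq GRCm38.p6, whose coordinates are those of mm10. Capitals mark 3 motifs on either strand. The first is CCAAT, which can also be read as ATTGG. The second is ACTACAA, a core found in sites of ZNF143, and the third is TGGGAA, the Ikaros core with the base before it. The windows lie at chr11:69758584-69758883 (minus strand) for Polr2a, chr10:19591699-19591998 (plus) for Ifngr1, chr4:156109748-156110047 (plus) for 9430015G10Rik, chr8:69996335-69996634 (minus) for Gatad2a and chr7:100371983-100372282 (plus) for C2cd3.
Polr2a: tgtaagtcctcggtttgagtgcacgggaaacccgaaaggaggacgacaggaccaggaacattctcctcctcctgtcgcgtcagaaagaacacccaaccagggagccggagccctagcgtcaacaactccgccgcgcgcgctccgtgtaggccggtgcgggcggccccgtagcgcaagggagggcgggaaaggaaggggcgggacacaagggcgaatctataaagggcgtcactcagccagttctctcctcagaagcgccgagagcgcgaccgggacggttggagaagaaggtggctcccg
Ifngr1: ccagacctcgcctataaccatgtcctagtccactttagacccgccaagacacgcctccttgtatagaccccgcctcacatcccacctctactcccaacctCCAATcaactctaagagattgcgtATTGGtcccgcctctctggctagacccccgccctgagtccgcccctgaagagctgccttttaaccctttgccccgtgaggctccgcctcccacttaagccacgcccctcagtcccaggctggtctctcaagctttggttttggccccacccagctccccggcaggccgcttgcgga
9430015G10Rik: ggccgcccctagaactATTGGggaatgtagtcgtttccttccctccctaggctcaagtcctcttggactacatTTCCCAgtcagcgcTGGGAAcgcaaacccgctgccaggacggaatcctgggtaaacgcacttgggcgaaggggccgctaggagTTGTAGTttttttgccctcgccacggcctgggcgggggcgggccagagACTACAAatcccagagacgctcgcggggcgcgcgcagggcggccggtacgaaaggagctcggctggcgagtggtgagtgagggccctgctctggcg
Gatad2a: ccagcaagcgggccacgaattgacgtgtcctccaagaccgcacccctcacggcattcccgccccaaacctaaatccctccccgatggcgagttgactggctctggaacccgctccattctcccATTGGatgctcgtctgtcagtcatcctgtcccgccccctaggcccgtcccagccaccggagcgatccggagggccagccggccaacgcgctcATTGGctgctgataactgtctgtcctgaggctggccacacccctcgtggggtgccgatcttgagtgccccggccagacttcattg
C2cd3: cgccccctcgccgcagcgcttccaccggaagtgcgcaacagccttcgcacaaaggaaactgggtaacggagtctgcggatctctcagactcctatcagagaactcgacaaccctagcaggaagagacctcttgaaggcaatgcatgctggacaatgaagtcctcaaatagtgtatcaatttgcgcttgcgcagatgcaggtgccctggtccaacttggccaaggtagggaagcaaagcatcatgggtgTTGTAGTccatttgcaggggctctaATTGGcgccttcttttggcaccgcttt

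Of these 5 windows 4 held CCAAT on 1 strand or the other, and the window of Polr2a (the largest subunit of RNA polymerase II) held none of the capitalised motifs. In Ifngr1, a chain of the interferon gamma receptor, the 2 copies began 150 and 126 bases upstream of the start. In Gatad2a, a subunit of NuRD, they began 127 and 35 bases upstream. The window of 9430015G10Rik held 1 CCAAT, 2 copies of ACTACAA and 2 of TGGGAA, and was the only one of the 5 with TGGGAA. The window of C2cd3, a gene for a centriole protein, held ACTACAA across the start and CCAAT 23 bases downstream of it.

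The 560 members were 301 to 1161 bp wide, with a median of 350 bp against 109 bp over all regions. A gene end lay inside 375 of them (67.0%), against 27.3% of the narrower regions at gene ends. In 454 cases 1 gene had an end within 1000 bp, in 104 cases 2 genes did, and in 2 cases 3 genes did. For the 435 members at a start, the centre of the region lay a median of 87 bp upstream of it, with quartiles at -157.75 and 29 bp. The centre was upstream of the start in 302 (69.4%) and within 250 bp of it in 352 (80.9%). The outermost centres lay at -1127.5 and 1154 bp. In 40 members (7.14%) the region served a divergent pair of starts.

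**Figure D1:**
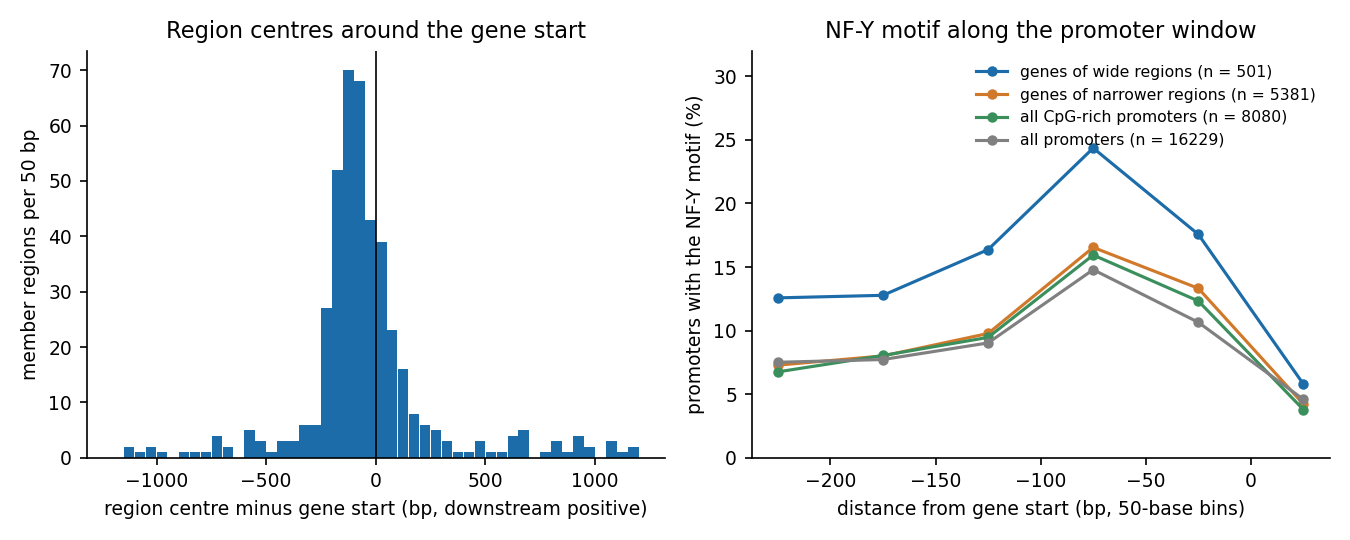
The left panel plots the number of member regions per 50 bp against the distance of the region centre from the gene start in bp, for the 435 members nearest to a start, and most centres lie just upstream of the start (median 87 bp upstream). The right panel plots the percent of promoter windows with the NF-Y motif (CCAAT on either strand) in each 50-base bin for genes of wide regions, genes of narrower regions, all CpG-rich promoters and all promoters; all sets peak 50 to 100 bases upstream, at 24.4% for genes of wide regions and 14.8% for all promoters.

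Reads in members numbered 22951 in library 1, 25657 in library 2 and 28162 in library 3, which was 1.37%, 1.63% and 1.35% of all reads in regions (1.45 ± 0.158%, SD, n = 3 libraries). The library totals were 1675237, 1570251 and 2081455 reads in regions. A member held a median of 38, 41 and 46 reads in the 3 libraries, and no member had fewer than 6 reads in any library. Whether each library had its own culture is not stated, and their spread may be technical. Counts of 10 or more in members were even in 60.7% of cases, so both mates of a pair may have been counted. The Wilson intervals given here are for shares of regions or promoter windows. They do not cover error of read counts or the spread between libraries.

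Signal is given as CPM, the reads in a region scaled to a library total of 1e6 reads in all regions, and as CPM per kb of region width. The median member had 22.7, 26.1 and 22.1 CPM in libraries 1, 2 and 3, with library 2 the highest (mean 23.6 ± 2.17). Wide regions away from gene ends, 1295 in number, had a median of 15.8 ± 0.646 CPM, and the 9869 narrower regions at gene ends 7.91 ± 0.323 CPM. Per kb of width the medians were 59.8, 71.2 and 59.4 CPM in members (63.4 ± 6.69), 44.8 ± 1.90 in wide regions away from gene ends, 58.2 ± 2.63 in narrower regions at gene ends and 48.6 ± 1.07 over all regions. Members were above narrower regions at gene ends per kb in each of the 3 libraries, where the latter had 56.9, 61.2 and 56.5, and the gap was largest in library 2.

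Across members, the correlation of log2(CPM + 0.5) was 0.61 between libraries 1 and 2, 0.58 between 1 and 3 and 0.59 between 2 and 3 (Pearson, n = 560 regions that share each library's depth). The median of the 3 pairs was 0.339 for wide regions away from gene ends, 0.305 for narrower regions at gene ends and -0.0138 over all regions. The coefficient of variation over libraries had a median of 24.7% in members (middle range 16.0 to 35.0%), against 29.4% in wide regions away from gene ends, 42.4% in narrower ones at gene ends and 49.7% overall. Read depth per region moved with this order, since the median reads in library 1 were 38, 26, 13 and 10 in the same 4 sets, and its part in the difference was not tested. In technical replicate 1 alone, where a member held a median of 6 reads, the median correlation over members was 0.177.

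**Figure D2:**
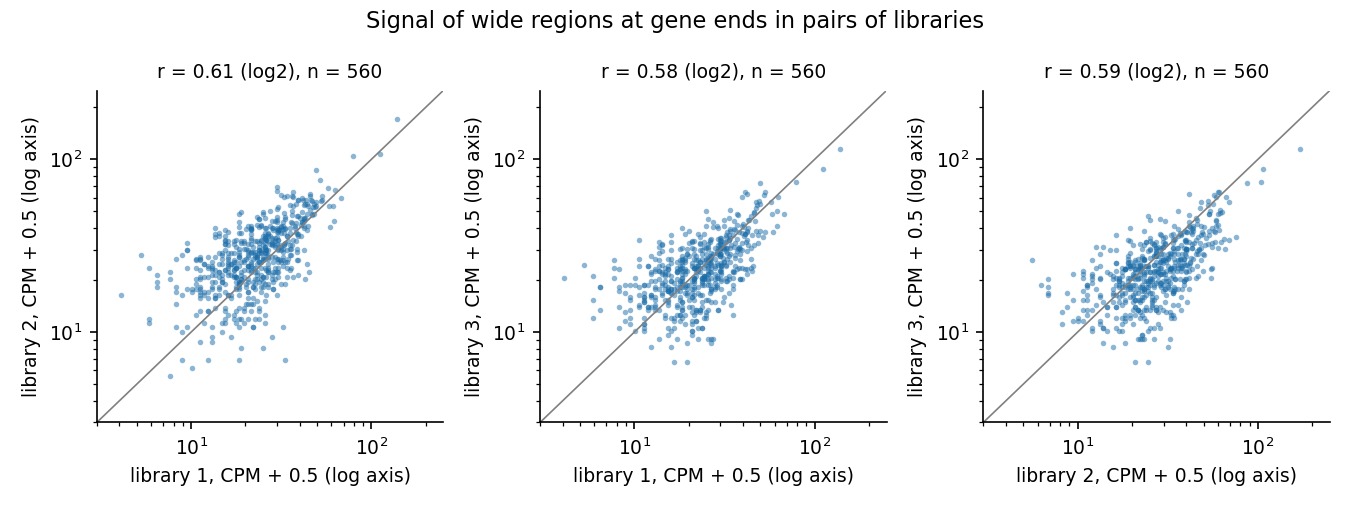
Each point is 1 of the 560 member regions, and the axes give its CPM plus 0.5 in 2 libraries on log scales, with the line of equality in grey. The correlation of log2 values is 0.61, 0.58 and 0.59 in the 3 panels, and the few regions of highest signal lie near the line in every pair.

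A region was counted as high in a library when its CPM per kb was among the top 10% of all regions there. Of members, 18.04%, 28.04% and 20% were high in libraries 1, 2 and 3. Of narrower regions at gene ends, 18.72%, 24.35% and 19.21% were, so members were not the higher in library 1. All 3 libraries put 57 members (10.2%) in that class, against 0.644% of all regions, 1.08% of wide regions away from gene ends and 4.62% of narrower regions at gene ends. Another 51 members (9.11%) were high in 2 libraries, 97 (17.3%) in 1, and 355 (63.4%) in none. This count depends on dividing by width: ranked by CPM instead, 462 members were in the top 10% in all libraries against 2.32% of all regions. Median reads in library 1 were 38 in members and 13 in narrower regions at gene ends. The part of read depth in the shares high in all 3 libraries was not tested. In technical replicate 1 alone, the shallower of the pair, 3 members were high in all libraries against 0.204% of all regions. By number of genes served, 17 of 106 members near 2 or more genes (16.0%) and 40 of 454 near a single gene (8.81%) were high in all 3. None of the 39 members nearest to the far end of a gene was, and their median was 14.9 CPM and 43.0 CPM per kb against 24.5 CPM and 64.2 CPM per kb for members at starts.

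The member of highest signal lay 173 bp from an end of Rdm1, which codes for a protein related to the DNA repair factor RAD52. It was also the widest, at 1161 bp (chr11:101627415-101628576), and had 138, 171 and 114 CPM in libraries 1, 2 and 3 from 231, 268 and 237 reads. Only 5 of all 151133 regions had a higher mean CPM. The strand of Rdm1 is not in the table, so this region was not assigned to a start.

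The second was shared by the starts of 2 genes, Srgap2 and Fam72a (chr1:131527339-131527881, 542 bp). It had 111, 106 and 87.4 CPM, with library 3 the lowest, and at 187 ± 23.0 CPM per kb it was the densest of all members. The third (chr17:57247692-57248182) lay 561 bp downstream of the start of Gpr108, a membrane protein of the Golgi, with 78.2, 104 and 73.5 CPM. The fourth covered the start of Rps19, a protein of the small ribosomal subunit (chr7:24884040-24884602), and varied most of the 10 in relative terms, with 48.9 CPM in library 1 against 86.6 and 72.1 in the others. The region at G3bp1, a stress granule protein, varied least, with 62.1, 66.2 and 60.05 CPM.

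The other 5 of the 10 highest were at Rab40c (60.4 ± 6.75 CPM), the centrosome gene Cep70 (59.0 ± 5.84), Bsdc1 (57.9 ± 9.72), Lin52 with Aldh6a1 (56.7 ± 4.78) and Osbp (54.8 ± 5.57). Lin52 is part of the MuvB core that regulates cell cycle genes, Aldh6a1 is an enzyme of valine breakdown, and Osbp moves sterols between membranes. Neighbours in this order from G3bp1 down differed by less than 1 SD. Rps19 was high per kb in 2 libraries, Osbp in 1 and Cep70 in none. The remaining 7 were high in all 3 libraries.

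**Figure D3:**
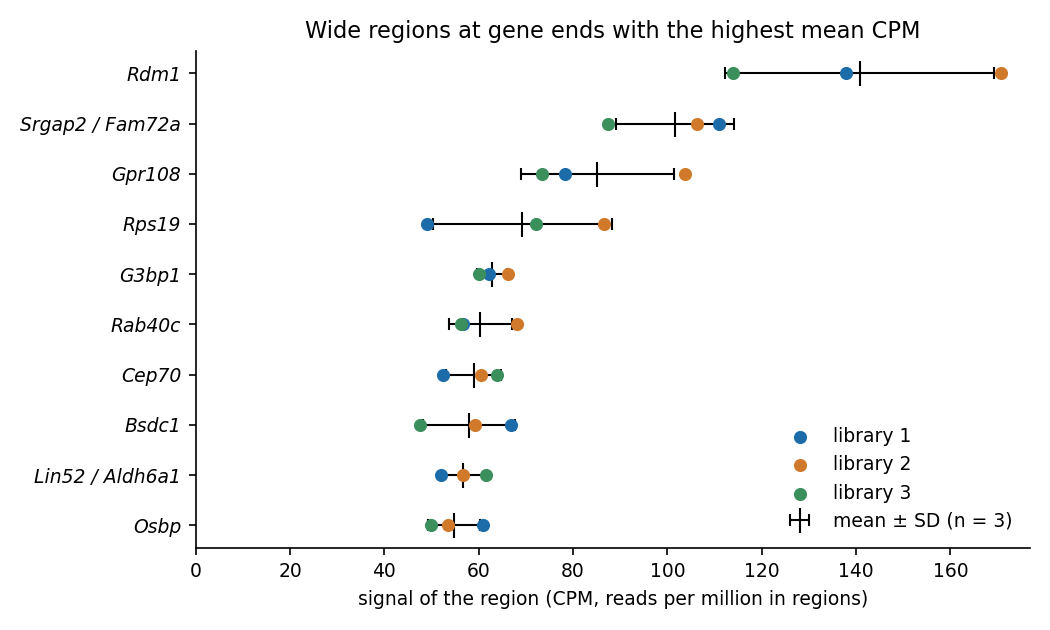
Points give the CPM of the 10 member regions with the highest mean CPM in each of 3 libraries, and bars the mean ± SD. Rdm1 (141 ± 28.5 CPM) and Srgap2 with Fam72a (102 ± 12.5 CPM) lie above the others in every library, and from G3bp1 to Osbp the libraries overlap.

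The 5 widest members were Rdm1, Polr2a at 918 bp, Lyl1 at 860 bp, Cep70 at 763 bp and Zfp444 at 760 bp. The Polr2a region (chr11:69758032-69758950) had 57.3, 52.9 and 48.04 CPM. Lyl1, a transcription factor of blood progenitors, had 42.4, 45.2 and 44.2 CPM across chr8:84701039-84701899 (43.9 ± 1.44), and Zfp444, a zinc finger gene, had 45.6 ± 8.39 CPM. Rdm1 was high per kb in all 3 libraries and the other 4 in none: Polr2a had 57.4 ± 5.05 and Lyl1 51.1 ± 1.67 CPM per kb. The 5 densest members were Srgap2 (187 CPM per kb), Gpr108 (174), Bsdc1 (152), the cell adhesion gene Vcl (150) and 9430015G10Rik (149). Over all 560 members, width and log2 CPM per kb were unrelated as a description (Pearson r = -0.02).

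At the low end were Tm4sf5 (11.3 ± 3.13 CPM), the lysosomal regulator Tfeb (11.2 ± 6.42), the chemokine receptor gene Ccr1 (10.4 ± 4.78), Fabp9 (10.4 ± 5.27) and Gm17455 (9.65 ± 1.35). Each had between 9 and 38 reads per library. None of these 5 was high in any library.

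Values beside the limits of the selection were as follows. Just inside the width limit, at 301 bp, were Fbxo48 (44.9 ± 13.6 CPM), Mrtfa (24.97 ± 11.6) and Dusp2 (21.7 ± 9.93), and just outside it, at 300 bp, Rps6ka5 (27.2 ± 3.20), Polr3k (23.3 ± 9.72) and Ipo11 (22.7 ± 1.53). Regions at gene ends from 280 to 300 bp, 158 in number, had a median of 17.8 CPM and 60.7 CPM per kb, and the 136 from 300 to 320 bp had 19.4 and 62.0. Just inside the distance limit were Anks3 (947 bp, 25.2 ± 3.02 CPM), Bub1 (946 bp, 16.6 ± 4.23) and Clip2 (932 bp, 17.96 ± 5.52). Just outside it were Usp36 (1011 bp, 13.3 ± 2.19), Mapk9 (1015 bp, 11.9 ± 2.57) and a separate region of Cep70 (1018 bp, 24.96 ± 4.50).

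A member region lay within 1000 bp of an end of 665 of 20337 protein-coding genes (3.27%), and narrower regions of 8510 (41.8%). The gene groups with the largest shares rested on 3 to 10 genes each. Groups of housekeeping genes were drawn by symbol pattern, which can take in genes of another function, such as Eif4ebp1 (translation) and Lsm14b (splicing). Of 73 cytosolic ribosomal protein genes 9 had one (12.3%), of 102 translation factor and aminoacyl tRNA synthetase genes 10 (9.80%), of 55 RNA polymerase and Mediator genes 5 (9.09%), and of 39 proteasome genes 3 (7.69%). These genes also had narrower regions more often than genes at large (67.1%, 59.8%, 56.4% and 59.0%). The order of groups depended on the width limit: at 250 bp, ribosomal protein genes had 15.1% and translation genes 13.7%, but p53, apoptosis and cell cycle genes had 13.04%, mitochondrial ribosomal protein genes 12.99%, proteasome genes 12.8%, polymerase and Mediator genes 12.7% and MLL-AF9 targets and cofactors 12.5%, against 6.23% of all genes. The ribosomal protein genes included Rps19, Rpl37, Rpl27, Rps24, Rps3 and Rps9, and they ranged from Rps19 at 69.2 ± 18.99 CPM to Rpl37 at 30.5 ± 4.01 and lower, with Rps9 at 15.4 ± 5.40, 197 bp from the far end of the gene. Cars, a tRNA synthetase gene, led the translation group at 31.7 ± 5.52 CPM and Polr2a the polymerase group at 52.7 ± 4.63.

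Among the proteasome genes, Psmd8 and Psmd3, both of the regulatory particle, had 39.6 ± 2.16 and 38.6 ± 8.64 CPM and were high in all 3 libraries, while Psmb9, an immunoproteasome subunit whose region is shared with Tap1, had 16.3 ± 6.32. The other groups of housekeeping genes lay closer to the share over all genes. Members were found at 4 of 77 mitochondrial ribosomal protein genes (Mrpl48, shared with Rab6a, 33.4 ± 9.89 CPM), at 3 of 62 splicing factor genes (Sf3b2, 25.8 ± 3.58) and at 2 of 94 respiratory chain genes (Cox8a, 28.9 ± 9.97, and Ndufa5, 20.5 ± 7.86). Of 385 Zfp genes 8 had a member (2.08%). Of 67 replication-dependent histone genes 4 did, and 3 of these, H2ac13, H3c10 and H2bc13, shared 1 region of 18.1 ± 9.12 CPM.

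Genes tied to leukaemia or blood lineage showed single members. In the Ikaros and NuRD group 1 of 25 genes had one, Gatad2a, whose promoter is printed above, with 52.5, 57.3 and 37.5 CPM from 88, 90 and 78 reads. Its 500 bp region (chr8:69996258-69996758) was high in 2 libraries. In the group of MLL-AF9 targets and cofactors 1 of 32 did, Wdr5, a subunit of MLL complexes, with 11.9, 26.7 and 26.9 CPM, library 1 being the lowest. Of 38 myeloid regulator and differentiation genes only Cebpa, the factor that drives granulocyte differentiation, had one, a 327 bp region over its start (chr7:35119020-35119347) with 17.9, 23.6 and 13.0 CPM, below the median member.

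The erythroid and megakaryocytic regulator Nfe2 was the 1 gene of 20 in its group, with 24.5, 35.7 and 49.97 CPM, a wide spread. Of 46 genes of p53, apoptosis and the cell cycle, E2f3 (40.9 ± 6.96 CPM, high in all 3 libraries) had a member at its start and Bax (28.2 ± 9.98) had one 327 bp from its far end. Of 28 inflammatory and interferon genes, Myd88, the adaptor of Toll-like receptors, had one, shared with Acaa1a (33.8 ± 1.96 CPM, high in all 3). No member was found at any of 24 lymphoid genes, 29 genes of tissues outside blood or 1445 olfactory and vomeronasal receptor genes, of which 7, 9 and 178 had a narrower region. In the lists of 20 to 46 genes, counts of 0 to 2 are too few to set a share apart from the 3.27% of all genes.

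The sequence of the promoters was not used to select the regions. A start lay within 1000 bp of 439 members, and 501 genes at these starts had a promoter window in the RefSeq table, as did 16229 genes in all and 5381 genes at narrower regions. Genes whose starts share a region enter separately with the same signal, so windows are not independent. The Wilson intervals below treat windows as independent and may be too narrow. The median GC content was 62.0% in windows of member genes, 60.0% at narrower regions and 56.7% overall. The median ratio of observed to expected CpG was 0.799, 0.745 and 0.596, and 79.4%, 68.2% and 49.8% of windows reached a ratio of 0.6, called CpG-rich here. The base composition of a window bears on how often a motif occurs in it, so the 8080 CpG-rich promoters of all genes are given as a further background.

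In all 12 motifs were searched on both strands. CCAAT was found in 260 of 501 member windows (51.9%, 95% Wilson interval 47.5 to 56.2), against 40.7% at narrower regions, 39.2% of all promoters and 37.8% of all CpG-rich promoters. Restricted to CpG-rich windows, a comparison added after the data were seen, the share in members was 52.8%. At least 2 copies were present in 25.7% of member windows against 13.5% of all. CCAAT in members was most frequent from 100 to 50 bases upstream of the start, in 24.4% of windows against 14.8% of all promoters.

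The Ikaros core differed little between the sets. TGGGAA was found in 22.2% (18.7 to 25.996), against 24.4% at narrower regions, 24.1% of all promoters and 20.2% of CpG-rich ones. The shorter core GGGAA, which every TGGGAA contains, was in 67.3% (63.04 to 71.2) against 65.5%, 62.4% and 63.2%, so its interval lay above the share of all promoters but held those of narrower regions and of CpG-rich promoters. GGGCGG was in 71.7% against 47.2% of all promoters but 74.3% of CpG-rich ones. The ETS core CCGGAAG was in 19.96% against 12.2% and 20.1%, and GCATGCGC (NRF1) in 7.19% against 3.66% and 6.51%. TATAAA was scarcer, at 4.59% against 13.5% and 5.77%, and ACTACAA was in 5.59% against 3.97% and 4.22%. At narrower regions GGGCGG was in 60.8%, CCGGAAG in 19.1%, GCATGCGC in 5.56%, TATAAA in 8.70% and ACTACAA in 5.20%. The other 4 motifs, TGACGTCA (CRE), AAGATGGCG (YY1), CACGTG (E-box) and TCTCGCGAG, were in 2.99%, 2.99%, 9.38% and 1.60% of member windows, each with the share of all CpG-rich promoters inside its interval. CCAAT was thus the 1 motif of the 12 whose interval in members lay above the share in all 3 other sets.

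Within members, CCAAT moved with signal. It was in 45.7% of 300 windows whose region was high in no library, 48.9% of 92 high in 1, 67.3% of 52 high in 2 and 75.4% of 57 high in all 3 (62.9 to 84.8). Genes of narrower regions showed a flatter series, 38.0%, 40.5%, 44.0% and 51.0%. There a gene with several narrower regions at its start took the highest class among them. Narrower regions at gene ends also held fewer reads, a median of 13 in library 1 against 38 in members. The part of these differences in the flatter series was not tested. The median GC content of the 4 member classes was 62.2%, 62.7%, 61.0% and 60.0%. Regions of windows with CCAAT had a median of 70.3 CPM per kb and 16.5% were high in all 3 libraries, against 61.0 CPM per kb and 5.81% without it. ACTACAA, in 28 windows, went from 2.33% in the first class to 13.5% and 12.3% in the last 2, with medians of 87.4 and 63.7 CPM per kb with and without it. GGGCGG was in 67.7%, 72.8%, 84.6% and 78.9% of the 4 classes. Genes of narrower regions rose as well, with ACTACAA in 3.45%, 5.73%, 8.05% and 7.43%. Their series for GGGCGG was 54.6%, 62.1%, 70.7% and 71.5%, so neither rise was particular to members. The shorter Ikaros core GGGAA was in 62% (56.4 to 67.3), 76.1%, 76.9% and 71.9% (59.2 to 81.9), and regions of windows with it had a median of 66.97 CPM per kb against 61.3 without it. TGGGAA was in 19.3%, 29.3%, 25% and 22.8%, with intervals that overlap. CACGTG went the other way, from 12% and 9.78% to 1.92% and 1.75%, on 47 windows in all. AAGATGGCG, in only 15 windows, was in 2%, 2.17%, 3.85% and 8.77%. Regions with it had a median of 76.4 CPM per kb, and 33.3% were high in all 3 libraries, against 64.6 and 10.7% without it. Medians per kb were lower with than without TGACGTCA, GCATGCGC, TCTCGCGAG and TATAAA. These motifs were picked for comment after all 12 had been looked at.

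**Figure D4:**
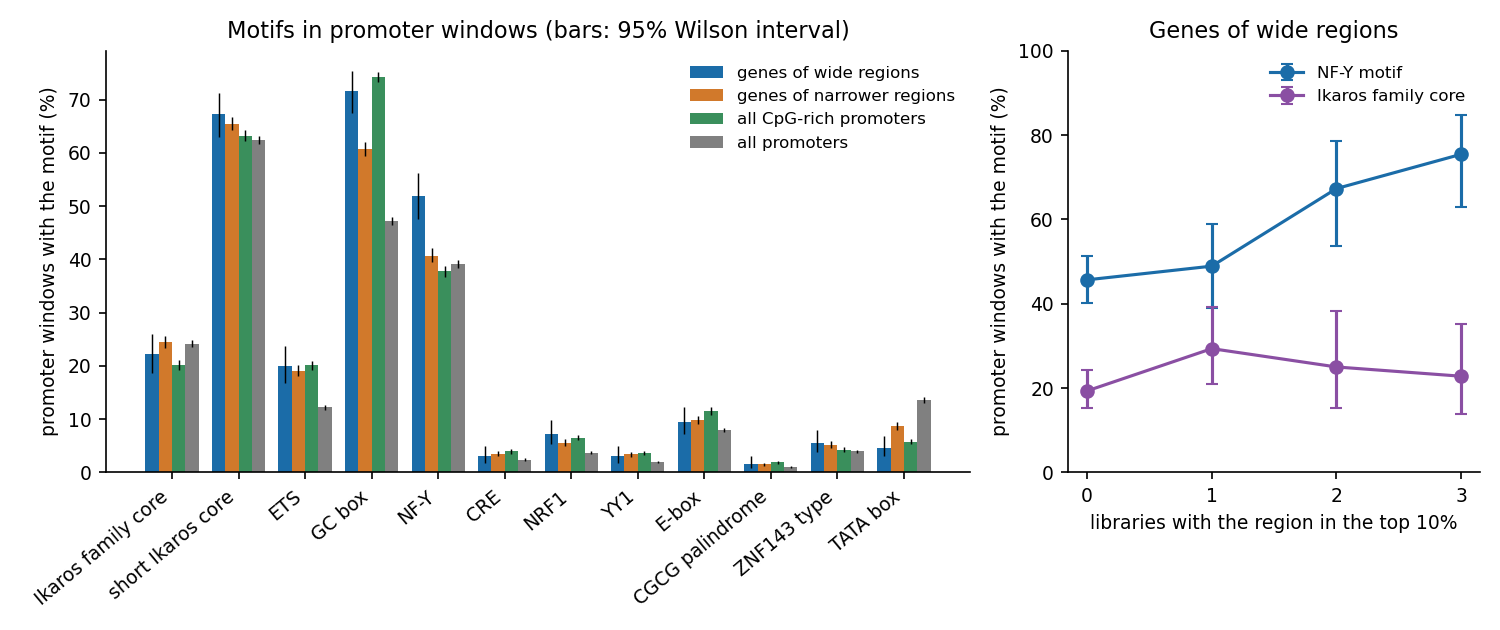
The left panel gives the percent of promoter windows that hold each of 12 motifs in 4 sets of genes, with 95% Wilson intervals. Only for the NF-Y motif (CCAAT, 51.9%) does the interval in genes of wide regions lie above the shares of all other sets. The right panel plots, for member genes, the percent with the NF-Y motif and with the Ikaros family core against the number of libraries in which the region was high; the first goes from 45.7% to 75.4% and the second is 22.8% in the last class.

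Copies of CCAAT and of some other motifs lay closer to the middle of the region than other bases of the same windows. In the 414 windows that overlap their region, 93.1% of 451 CCAAT copies fell inside the region against 81.6% of all window bases, at a median of 74.5 bp from the region centre against 97 bp. Within 50 bp of the centre lay 34.8% of the copies and 27.0% of the bases. In all sets of promoters CCAAT was most frequent from 100 to 50 bases upstream of the start. Centres of members at starts lay a median of 87 bp upstream. The part of this shared position in the closeness was not tested. All 31 copies of ACTACAA were inside the region, with 45.2% within 50 bp of its centre. For TGGGAA the values were 87.8% inside and 31.7% near the centre. A match is only a match of letters and does not show that a factor is bound there.

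The technical replicates of a library differ in depth, 273896 to 326440 reads in regions in replicate 1 and 1296355 to 1755015 in replicate 2, and members took different shares of them. In replicate 1 members held 1.15%, 1.39% and 1.13% of reads in libraries 1 to 3, and in replicate 2 1.42%, 1.69% and 1.39%. The share was higher in replicate 2 in 3 of 3 libraries, by 0.273 ± 0.0173 percentage points (exact sign-flip test over libraries, two-sided, p = 0.25, the smallest p that 3 pairs allow). What distinguishes the replicates is not stated beyond their name, and the ratio of the shares was 1.23, 1.21 and 1.23.

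Region by region, replicate 2 was compared with replicate 1 by edgeR (quasi-likelihood test, libraries as blocks) over the 27452 regions that passed its filter on low counts. Of the 560 members 555 passed, and Bcl6, Inpp4a, Tm4sf5, Ccr1 and Gm17455 did not. With Benjamini-Hochberg adjusted p under 0.05, 13 members were higher in replicate 2 and 0 lower, where the background over all tested regions was 0.138% higher and 0.12% lower. This is 2.34% of the members tested, against 0.633% of 1264 wide regions away from gene ends and 0.21% of 3809 narrower regions at gene ends called either way. Depth fell in the same order, with median reads of 6, 4 and 2 in replicate 1 of library 1 over these sets, tested or not. Its part in the shares was not tested. The median log2 difference was 0.99 over members and 0.41 over all tested regions, so members stood 0.58 above the tested regions. Above 0 were 540 of 555 members and 66.2% of all tested regions. At an unadjusted p under 0.05, 224 members (40.4%) and 6.86% of all regions passed. With library totals in place of TMM the medians became 0.62 and 0.05 and 2 members were called, DESeq2 called 7, and without any 1 of the 3 libraries 0 were called, with 93 to 111 at an unadjusted p under 0.05.

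The clearest was Rassf4, a Ras association domain gene, with 5, 2 and 0 reads in replicate 1 of the 3 libraries and 58, 84 and 64 in replicate 2 (log2 difference 3.29 ± 0.58, SE; edgeR adjusted p = 1.6e-05). The groups did not overlap in CPM. The Srgap2 and Fam72a region had 12, 30 and 16 reads against 174, 137 and 166 (1.45 ± 0.30; edgeR adjusted p = 0.00091), but in library 2 its CPM was 110 in replicate 1 and 106 in replicate 2. Haus3, a subunit of the augmin complex of the spindle, had 4, 4 and 12 reads against 74, 71 and 105 (2.06 ± 0.44; edgeR adjusted p = 0.0021). The Rdm1 region had 29, 30 and 36 against 202, 238 and 201, a smaller difference (1.11 ± 0.25; edgeR adjusted p = 0.0042).

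The other 9 were Dcaf15, Gpt2, Osbp, Nfkbib with Sirt2, P4hb, Paqr7, Phf23 with Gabarap, Ppp1r3d and Vcl. Ppp1r3d had 0 reads in replicate 1 of all 3 libraries and 29, 17 and 25 in replicate 2, and Gpt2, a mitochondrial alanine aminotransferase, had 2, 0 and 2 against 36, 42 and 50. In 11 of the 13 the CPM was higher in replicate 2 in all 3 libraries, and Srgap2 and Phf23 were the exceptions, both in library 2. The calls rest on counts of 0 to 36 reads in replicate 1.

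**Figure D5:**
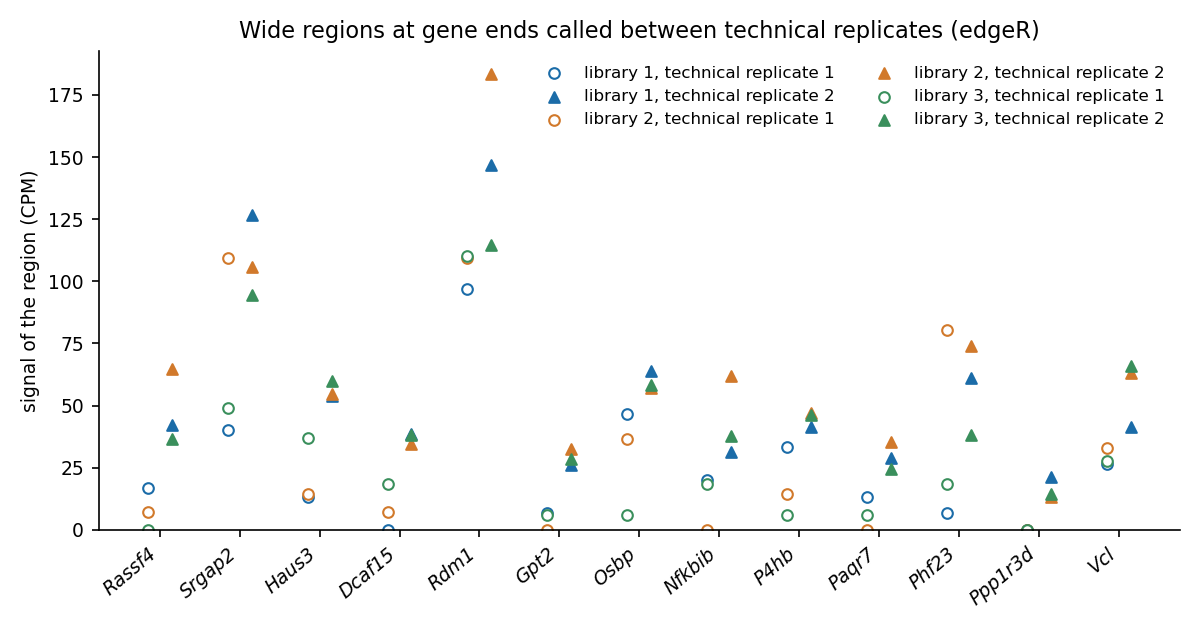
CPM of the 13 members called between technical replicates (edgeR adjusted p under 0.05), ordered by adjusted p, in replicate 1 (open circles) and replicate 2 (filled triangles) of each of 3 libraries. Rassf4 lies at 0 to 16.7 CPM in replicate 1 and 36.5 to 64.8 in replicate 2, while the Srgap2 values of library 2 are 110 and 106.

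Between the 3 libraries, an edgeR fit that also held the technical replicate called 0 of 555 members, against 0.0146% of all tested regions, and DESeq2 called 0 as well. At an unadjusted p under 0.05, 15 members (2.70%) passed edgeR's test against 4.35% of all regions, and no member had an adjusted p that rounded below 1. The members nearest to a call were Rnf170 with Hook3, with 8, 43 and 50 reads in libraries 1, 2 and 3, Pkib, with 12, 8 and 53, and Dmpk with Six5, with 26, 25 and 75.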

How the data were processed

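Sample titles gave the groups: IKZF2 antibody (6 samples, in 3 libraries) and control antibody (4 samples, not analysed here). The deposited tables gave raw read counts for a set of regions common to all 6 samples. Per the submitters' processing notes the build is mm10 and the tools include MACS2 and Bowtie2 2.3.3.1. The sources used here do not say what each tool did, which samples and threshold gave the regions, or whether region starts count from 0 or 1, and starts are printed as deposited.

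Technical replicates were summed per library and scaled to the library total in regions (CPM). Members and gene lists were chosen with earlier results of these data known. Genes were protein-coding RefSeq genes of GRCm38.p6 (21887), and strand came from the RefSeq promoter table (17492 genes). Widths are end minus start. Gene groups were 18 lists of symbols or symbol patterns. Genes were named by rule: the 10 highest members by mean CPM, the 5 widest, the 5 densest and the 5 lowest, the highest of each list, in each test the called members of lowest adjusted p (up to 10) or the 3 of lowest unadjusted p, those nearest the limits, and the highest whose promoter window lay inside the region. Phf23, Ppp1r3d, Bcl6, Inpp4a and the members of a list below its highest were named outside the rule, after their values were seen. Some items are not reported here. The tests of counts used edgeR 4.0.16 in R 4.3.3 (filterByExpr, TMM, glmQLFit and glmQLFTest), tried first on simulated data, and DESeq2 1.42.0 as an alternative. Both technical replicates of a number come from the same CUT&RUN library, per the labels, so the library was a block; over members their deviations correlated at 0.133, 0.0962 and 0.243. The rest was done in Python 3.11.15 (pandas 2.3.3, numpy 2.4.6, matplotlib 3.10.9, scipy 1.17.1).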

Additional observations from a re-analysis of the deposited data

How the results depend on the processing

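Of 59 alternatives to the main results, 37 stayed within a set limit and 22 did not. For signal and share of reads the limit was 1 SD over libraries, and for the correlation 1 SD over pairs of libraries. For gene starts and motifs it was the 95% Wilson interval of the main value, and for counts 1.5 times. The number of members was 1085 at a width limit of 250 bp and 143 at 400 bp. Their median was 72.2 CPM per kb with TMM and 52.2 in technical replicate 1 alone, where they held 1.23% of reads. Members high in all 3 libraries numbered 462 when ranked by CPM, 28 for the top 5% and 3 in technical replicate 1 alone. The median correlation between libraries was 0.177 in technical replicate 1 alone, 0.574 in replicate 2 alone and 0.576 to 0.611 when each library was left out. The percent at a gene start was 94.6 within 500 bp and 94.3 over 400 bp, and TGGGAA was in 16.7% of windows over 400 bp. Between technical replicates 13 members were called with the library as a block and 1 without the block, 2 with library totals, 5 without the filter, 6 with counts halved, 7 with DESeq2, and 0 to 0 when each library was left out. Between libraries 0 members were called under every alternative. The cause of these changes was not tested. Leaving out the 10 highest members, and CpG-rich promoters alone, were alternatives chosen after seeing the data; the share of reads was 1.38% without those 10. Depth limits technical replicate 1 most, where a member had a median of 6 reads.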

Other observations

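Members were spread over all 19 autosomes, from 9 on chromosome 18 (1.76 per 100 protein-coding genes) to 60 on chromosome 7 (2.96 per 100). The densest were chromosome 15 (31 members, 3.99 per 100) and chromosome 19 (26, 3.69 per 100). With the chromosome 4 segment and the sex chromosomes included, 599 regions met the width and distance limits.

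In technical replicate 1, 5% to 5.71% of members had 0 reads, against 34.5 to 41.4% of all regions, and no member had 0 reads in technical replicate 2. The median correlation between libraries was taken by width class, from the narrowest to the widest. It was 0.438 (161 members), 0.544 (120), 0.563 (136), 0.501 (105) and 0.767 (38 members above 500 bp). Between technical replicates 0, 3, 1, 4 and 5 members of these classes were called, against 0.259% of all tested regions. No call remained when any 1 library was left out. Median CPM rose with width, at 18.9, 22.9, 23.9, 27.2 and 32.3, and its part in the correlations and calls was not tested.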
